A study of Gasterosteus aculeatus with 242 samples.

Results

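Care by the father was compared with hand rearing in the brains of young female threespine sticklebacks (Gasterosteus aculeatus) that had never entered the test pool. These baseline females were the fish whose labels read baseline and female, 51 of the 242 fish of the series. They comprised 26 father-reared females from 8 families and 25 hand-reared females from 8 other families. Counts were summed over the fish of a family, and the family was the replicate.

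In the threespine stickleback the male alone builds the nest, fans the eggs and guards the fry, retrieving those that stray, while the female leaves after spawning. Fry of this species therefore meet their father, and no mother, in the first days after hatching. Removing the father takes away this early social contact, and work on this species has long asked how it shapes later behaviour toward predators. Brain expression in undisturbed juveniles shows the state from which a later response starts.

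The father-reared group (Day 10 in the labels) was raised by wild-caught fathers from a California creek, and the hand-reared group (Day 0) was taken from the father and raised without him. All fish were juveniles of 6 to 8 months, before sexual maturity. Baseline fish were taken straight from the home tank, and their brains were dissected within 30 minutes of a full sibling that had gone through an open field with a simulated attack by a model sculpin, a fish that preys on sticklebacks. Each library came from the left or the right side of 1 brain. Rearing was applied to whole families, so p-values for rearing measure the spread between families. The design was half-sib, and which families share a parent was not given in the labels, so shared parents were not modelled.

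Messenger RNA was read by 3′ tag sequencing, which counts transcript ends. The father-reared libraries held 708282 to 1339628 counts (median 991723, n = 26) and the hand-reared libraries 706544 to 1348204 (median 1044753, n = 25). Father-reared families contributed 1 to 5 females and summed to 1247573 to 5677264 counts, and hand-reared families contributed 1 to 6 females and summed to 1255818 to 6367461. Father-reared libraries came from 12 left and 14 right sides, and hand-reared libraries from 14 left and 11 right. The digit that opens each library name was taken as its plate, which the labels do not spell out. So read, plates 1, 2 and 3 held 10, 10 and 6 father-reared libraries and 8, 10 and 7 hand-reared libraries. The sex labels matched the counts of the gene with the smallest p for sex in open-field fish, ENSGACG00000006281, which is higher in males. It lay between 0 and 12.1 CPM (counts per 1000000 counts; median 6.04) in father-reared baseline females, between 0.977 and 10.9 CPM (median 5.56) in hand-reared baseline females, and between 62.6 and 214.9 CPM (median 146.8) in the 70 baseline males. Genes are given by Ensembl identifier, because the files do not pair identifiers with symbols and none of the 22456 matched the reference table at hand. For the same reason neither brain markers nor markers of other cell types could be looked up. In bulk tissue, fewer cells of a type and less RNA per cell cannot be told apart.

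No gene passed the test between father-reared and hand-reared baseline females. Of 7682 genes tested, 0 (0%) had an adjusted p under 0.05 by edgeR's quasi-likelihood test with Benjamini-Hochberg adjustment, and the smallest adjusted p was 0.951. DESeq2 also called 0 genes. At an unadjusted p under 0.05, edgeR gave 353 genes (4.6%) and DESeq2 320. Of all genes tested, 2.89% were higher and 1.71% lower in father-reared females at that threshold. For 0 genes (0%) did the 8 father-reared families all lie above or all below the 8 hand-reared families.

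The comparison was precise for most genes. The median standard error of a log2 fold change was 0.12, and for 87.4% of genes the approximate 95% interval of the difference lay within 1.5-fold in either direction. The median log2 fold change over all genes was 0.00, and 50.4% of genes were above 0. TMM scaling of the totals centres most genes near 0, so these values say little about rearing. Among the genes that passed the filter on low counts, large estimates were rare and lay mostly on the higher side. Estimates over 2-fold higher in father-reared females were found for 48 genes and over 2-fold lower for 3. With no filter on low counts the split was far closer, with 1093 of 19636 genes over 2-fold higher and 879 over 2-fold lower.

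Within the 7682 genes that passed the filter, the excess on the higher side was largest among genes of low level. With the genes divided by level into 4 classes of 1920 or 1921, those of the lowest class differed most. In it, 98 were higher and 23 lower at an unadjusted p under 0.05 (6.3% of the class, against 4.6% of all genes), and 31 were over 2-fold higher. In the class with the highest level, 27 were higher and 31 lower, and 3 were over 2-fold higher. The median standard error of a log2 fold change was 0.18 in the lowest class and 0.06 in the highest, so the lowest class was also the least precisely measured. The plot of all genes by level shows the same lopsided shape.

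**Figure D1:**
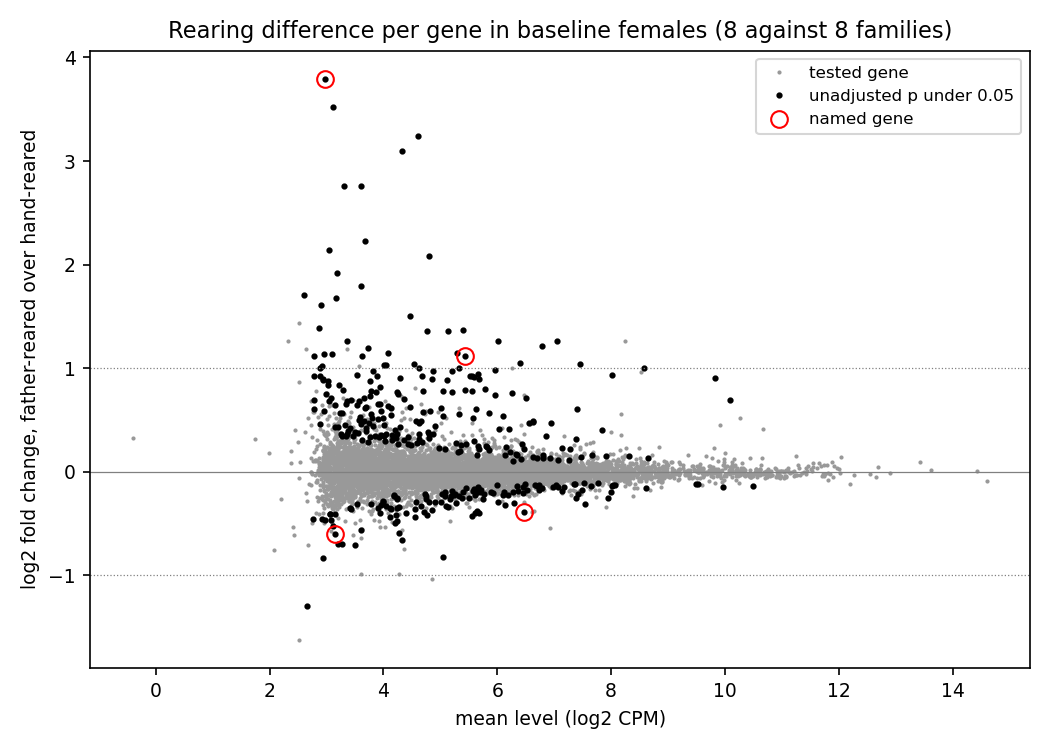
Log2 fold change of each of the 7682 genes in baseline females, father-reared over hand-reared, against its mean level (log2 CPM). Black points have an unadjusted p under 0.05, red rings are the 4 named genes, and dotted lines mark 2-fold; 48 points lie above the upper line and 3 below the lower one.

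ENSGACG00000015437 had the smallest p of all genes tested. With no baseline hand-reared female above 4.06 CPM, it passed the filter on low counts through fish in which it was high, and a filter on family sums dropped it, so its place in the order is a description only. By family, it stood at 1.59, 0.292, 0.511, 1.51, 12.6, 0.823, 38.7 and 28.2 CPM in the father-reared families 07, 17, 19, 20, 26, 27, 31 and 35. In the hand-reared families 04, 11, 22, 25, 30, 32, 39 and 40 it stood at 1.26, 1.32, 0.345, 1.41, 0.709, 0.319, 0 and 1.65 CPM. Father-reared families 31, 35 and 26 stood far above every hand-reared family, while the other 5 lay within the hand-reared range. Its log2 fold change was 3.79 (SE 0.91; edgeR p = 0.000545, adjusted p = 0.951). It rests on 1 to 210 counts per father-reared family and 0 to 6 per hand-reared family. Without family 31 the log2 fold change was 3.15. It was 0.99 where each family was given the mean log2 CPM of its fish and 2.08 with single fish and family as a random effect.

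The values of single fish showed the same division by family. Across father-reared females ENSGACG00000015437 lay between 0 and 101.1 CPM (median 4.02), and across hand-reared females between 0 and 4.06 CPM (median 0). Of the 26 father-reared females, 13 stood above the highest hand-reared female and 8 had no count. Of the 25 hand-reared females, 16 had no count. All 5 females of family 31 (17.3 to 101.1 CPM) and all 5 of family 35 (4.83 to 51.6 CPM) were above the highest hand-reared female, whereas in family 26 fish ran from 0 to 47.4 CPM.

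ENSGACG00000020876 had the next smallest p. Its father-reared families stood at 26.5 (family 07), 29.8 (17), 35.2 (19), 43.7 (20), 64.9 (26), 44.4 (27), 120.8 (31) and 81.5 CPM (35), a mean of 55.9 ± 32.1 CPM (SD, n = 8). Its hand-reared families stood at 19.0 to 33.8 CPM, a mean of 27.0 ± 5.86 (SD, n = 8). All father-reared families but 07 and 17 were above every hand-reared one, so the ranges overlapped at their ends. The log2 fold change was 1.12 (SE 0.27; edgeR p = 0.000657, adjusted p = 0.951). Single fish lay between 23.02 and 180 CPM (median 42.8) in father-reared females and between 12.3 and 55.2 CPM (median 25.4) in hand-reared females. All 5 females of family 31, at 90.7 to 180 CPM, were above the highest hand-reared female.

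The leading lower genes behaved differently. ENSGACG00000016157 lay between 50.6 and 91.3 CPM over father-reared families (mean 76.5 ± 13.3, SD, n = 8) and between 85.8 and 115.7 CPM over hand-reared families (mean 99.7 ± 9.19, SD, n = 8). The ranges met only at their ends, with family 27 at 91.3 CPM among the father-reared and family 22 at 85.8 CPM among the hand-reared. The log2 fold change was -0.38 (SE 0.10; edgeR p = 0.00085, adjusted p = 0.951). Single fish overlapped widely, with 34.8 to 174.6 CPM (median 65.96) in father-reared females and 56.6 to 184 CPM (median 101.6) in hand-reared females. ENSGACG00000005400 averaged 6.45 ± 1.92 CPM in father-reared families and 10.1 ± 1.17 CPM in hand-reared families (SD, n = 8 each). Its father-reared values ran from 2.47 to 8.49 CPM and its hand-reared values from 8.27 to 11.7 CPM, so that 1 father-reared family, 07, reached into the hand-reared range. Its log2 fold change was -0.60 (SE 0.17; edgeR p = 0.00186, adjusted p = 0.951). The counts behind it were low, at 3 to 37 per father-reared family and 13 to 59 per hand-reared family. With fish of plate 3 alone, 4 father-reared and 5 hand-reared families remained. There the log2 fold change of ENSGACG00000005400 was -0.16 and that of ENSGACG00000016157 was -0.79. With fish of plate 1 alone (6 father-reared and 5 hand-reared families), that of ENSGACG00000016157 was -0.22.

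The likeness of females within a family is given for the named genes as a description only, since a choice by p over family sums also bears on it. The intraclass correlation over families, the share of variance between fish that lies between families of the same rearing, was 0.49 for ENSGACG00000015437 and 0.38 for ENSGACG00000020876. It was -0.27 for ENSGACG00000016157 and -0.07 for ENSGACG00000005400, and within father-reared females alone it was -0.20 for ENSGACG00000016157 and 0.12 for ENSGACG00000005400. The median over all 7682 genes was 0.10, and 0.12 within father-reared females.

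**Figure D2:**
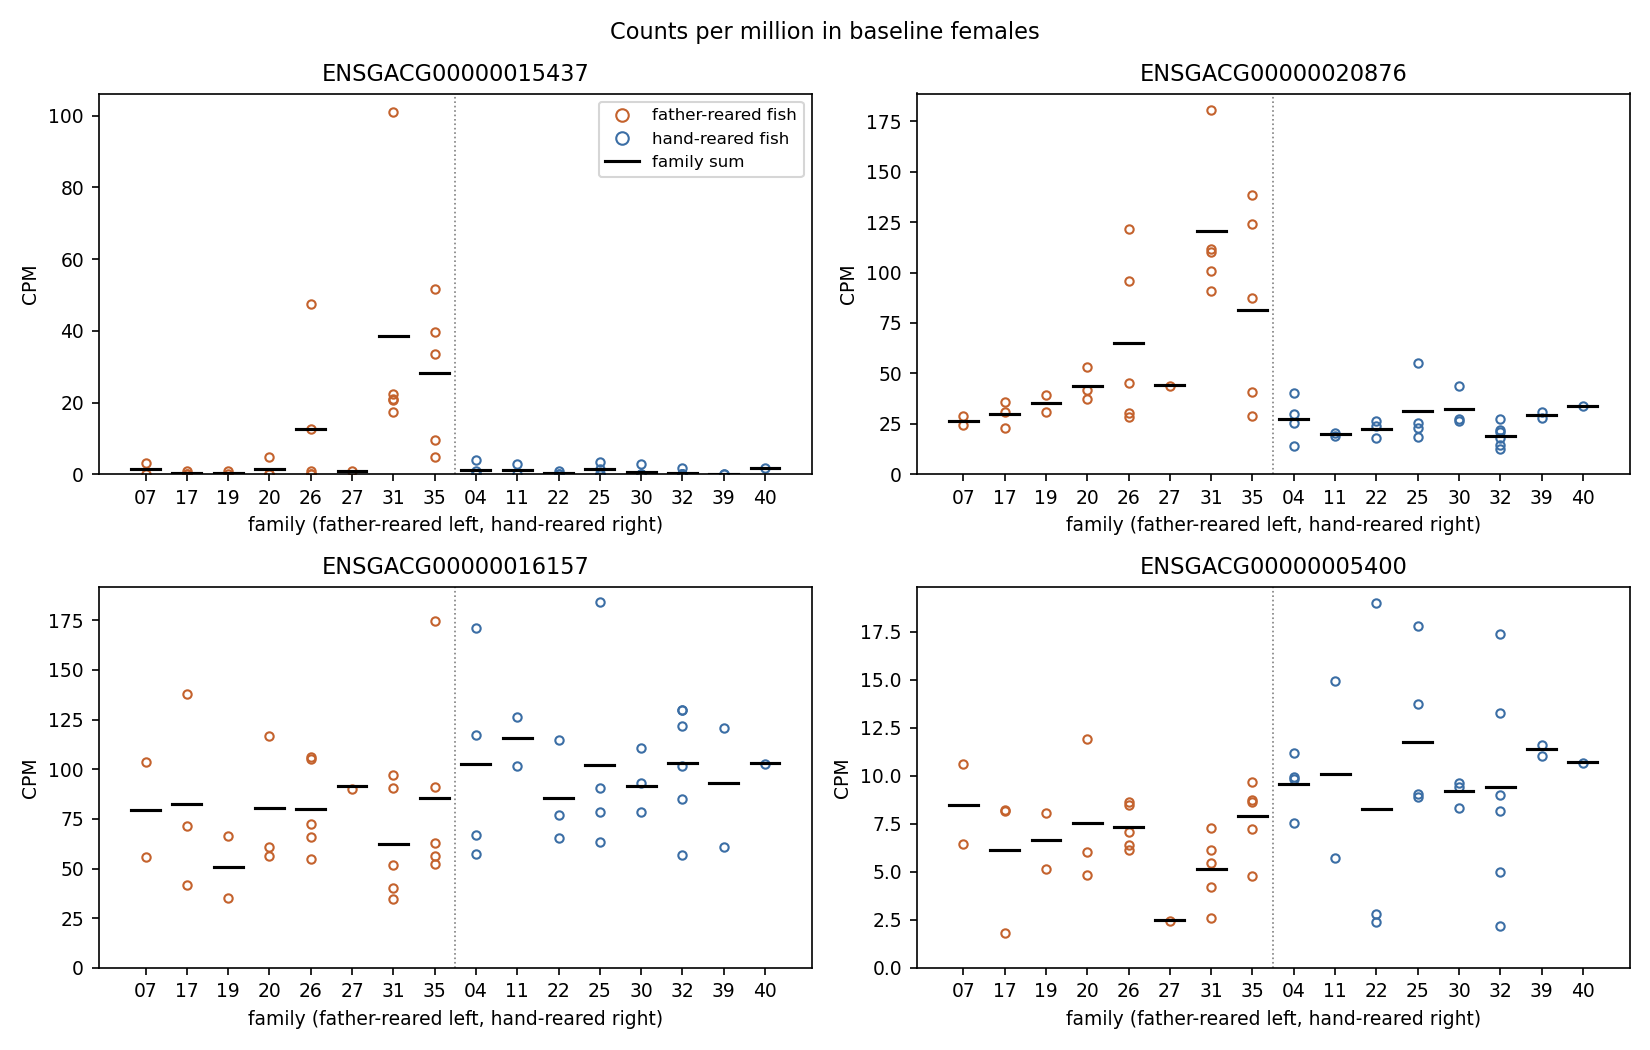
CPM of the 4 named genes in each baseline female (circles) and in the sum of each family (bars), with father-reared families on the left and hand-reared families on the right of each panel. For ENSGACG00000015437, families 31, 35 and 26 stand above the hand-reared families, at 38.7, 28.2 and 12.6 CPM. For ENSGACG00000020876, the other upper panel, all father-reared families but 07 and 17 do. In the lower panels most father-reared families lie below most hand-reared ones, and single fish overlap.

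The 48 genes over 2-fold higher were, for the most part, highest in the same few families. Their highest family was a father-reared one in all 48, and it was family 31 in 38 of them. Family 35 came next highest in 37. Family 31 lay above every hand-reared family in 42 of the 48 genes, family 35 in 41, family 26 in 27, family 20 in 23, family 07 in 10, family 27 in 7, and families 17 and 19 in 6 each. The median intraclass correlation of the 48 was 0.47, and 41 of them had an unadjusted p under 0.05. These genes were chosen by their difference, so the values describe them and test nothing. With family 31 left out, 21 genes were over 2-fold higher, 18 of them among the 48. With any other family left out there were 41 to 65. With each family given the mean log2 CPM of its fish in place of its sum, 8 were over 2-fold higher.

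The separation of whole expression profiles of baseline females by rearing was within the spread between families. Rearing held 6.44% of the variance between the 16 family profiles (exact permutation test over all 12870 assignments of families, p = 0.541). This p counts shares as large or larger, and the other exact permutation tests were two-sided. Father-reared families lay 30.8 ± 5.40 from the mean profile of their group and hand-reared families 27.6 ± 4.87 (Euclidean distance in log2 CPM, SD, n = 8 each; exact permutation p = 0.279). The standard deviation over families was the larger one in father-reared families for 58.9% of genes, and for 59.4% without family 31. Its median over genes was 0.23 in father-reared and 0.21 in hand-reared families. Genes are not independent replicates, so these values are descriptions. Family 27, a single female, lay farthest from its group mean, at 40.8, and was not left out for this share.

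The first principal component, 16.3% of the variance, averaged -1.54 ± 16.4 in father-reared families and 1.54 ± 8.65 in hand-reared families (SD, n = 8 each; exact permutation p = 0.647). Father-reared families took both ends of it, with family 31 at -20.6 and family 35 at -18.2 on one side and family 27, a single female, at 27.5 on the other. Without families 27 and 40, each of 1 female, the difference in mean score was -11.4 (exact permutation p = 0.0938), against -3.08 with them. Library measures differed by less than the spread between families. At 700000 counts per fish, 12779 ± 234.3 genes were detected in father-reared families and 12764 ± 62.1 in hand-reared families (SD, n = 8 each; exact permutation p = 0.858). The 50 most abundant genes held 22.6 ± 1.29% of counts in father-reared families and 22.7 ± 0.97% in hand-reared families (exact permutation p = 0.855).

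**Figure D3:**
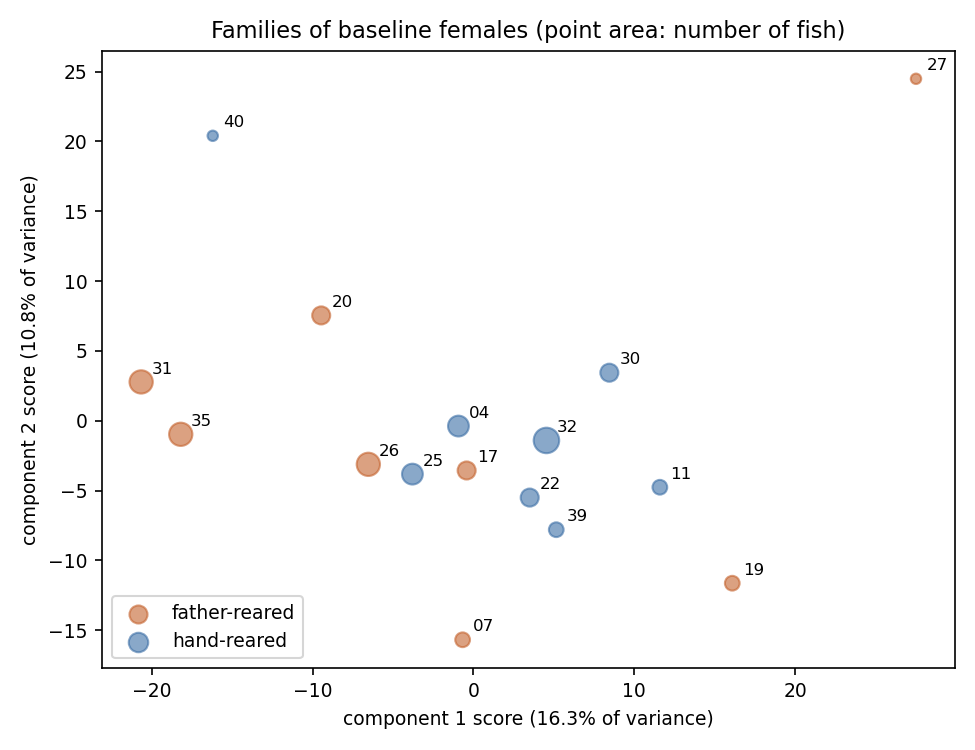
Scores of the 16 families of baseline females on the first and the second principal component of log2 CPM profiles, with point area standing for the number of fish. Father-reared families spread from -20.6 (31) to 27.5 (27) on the first component and hand-reared families from -16.2 (40) to 11.6 (11).

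Other fish of the same 16 families were then set beside the baseline females: 70 baseline males and 67 open-field females. They share no fish with the baseline females but come from the same families, so the comparisons are not independent. By edgeR 0 genes (0%) were called for rearing in either, with 536 genes at an unadjusted p under 0.05 in baseline males (6.98%) and 376 in open-field females (4.89%). DESeq2 called 45 in baseline males and 1 in open-field females. Across genes, the log2 fold change in baseline females had a Pearson r of 0.66 and a Spearman rho of 0.25 with that in baseline males, and 0.70 and 0.32 with that in open-field females. Genes are not independent replicates, and rho, which goes by rank, was the smaller value in both. Of the 48 genes over 2-fold higher in father-reared baseline females, 40 were also over 2-fold higher in baseline males (83.3% of the 48, and 48.8% of the males' genes), where 82 of all 7682 genes were. In open-field females 42 were (87.5% of the 48, and 66.7% of the open-field females' genes), where 63 of all 7682 genes were.

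The leading higher genes had large positive differences in these fish too. The filter on low counts ran over these fish as well, so the values of ENSGACG00000015437 in them are a description only. ENSGACG00000015437 had a log2 fold change of 3.56 (SE 0.85) in baseline males and 3.26 (SE 0.89) in open-field females, and ENSGACG00000020876 had 1.54 (SE 0.33) and 1.29 (SE 0.34). Family 31 was again the highest for both, with 68.9 CPM of ENSGACG00000015437 in baseline males and 73.4 CPM in open-field females. Family 35, next highest in baseline females, was below families 26 and 20 in both, at 16.4 and 12.4 CPM. The leading lower genes had smaller differences in these fish than in baseline females. Both were chosen by p in baseline females, so this was partly built in. ENSGACG00000016157 had -0.20 (SE 0.15) in baseline males and 0.02 (SE 0.13) in open-field females, and ENSGACG00000005400 had -0.21 (SE 0.18) and 0.04 (SE 0.14). Female minus male, the difference between these estimates was -0.18 (SE 0.15) for ENSGACG00000016157 and -0.385 (SE 0.29) for ENSGACG00000005400. Baseline minus open-field, it was -0.36 (SE 0.16) and -0.61 (SE 0.225). None of these passed adjustment.

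**Figure D4:**
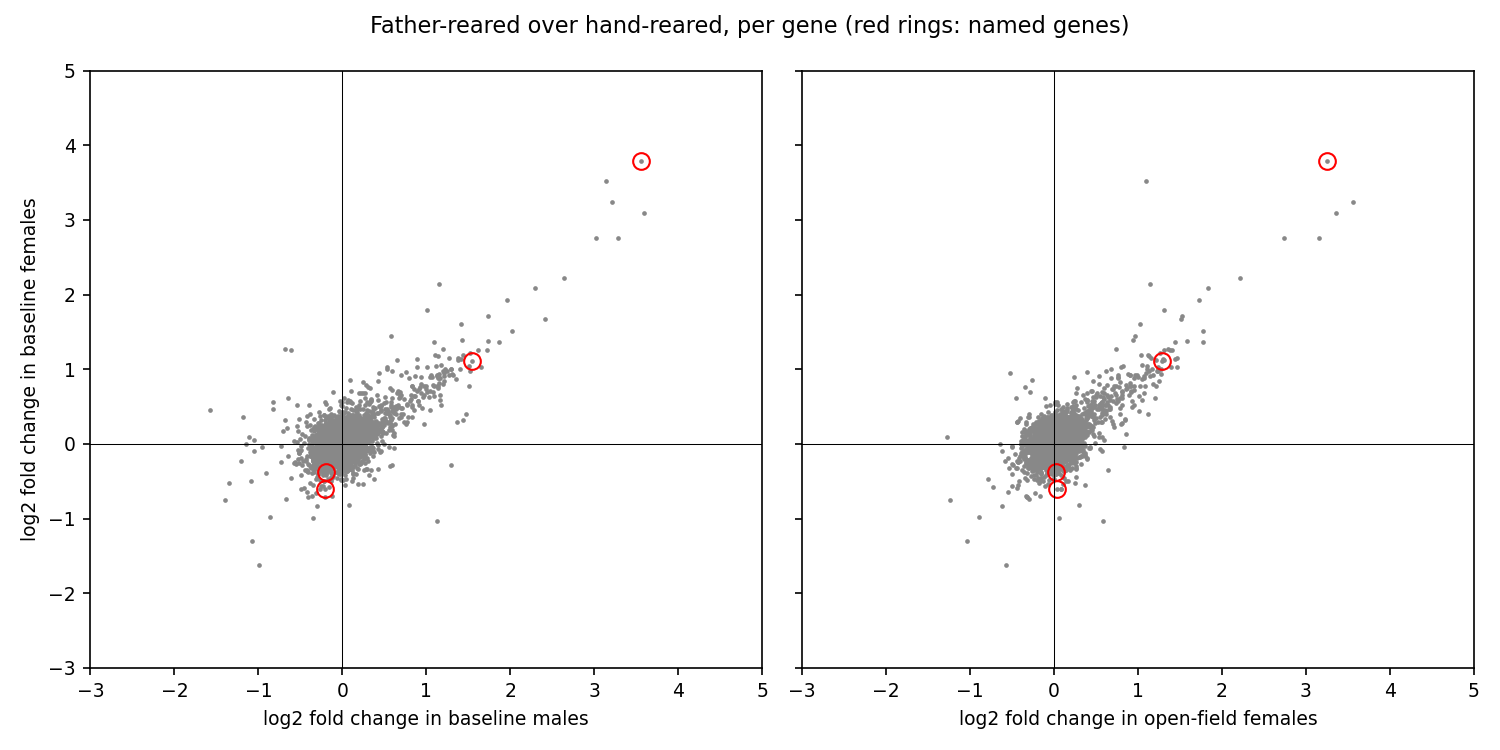
Log2 fold change of each gene in baseline females, father-reared over hand-reared, against the same in baseline males (left) and in open-field females (right), with the 4 named genes ringed. Most genes with large positive differences lie near the diagonal in both panels, and the lower named genes lie near 0 on the horizontal axis.

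Whether the rearing difference of baseline females differed from that of their brothers was tested by the rearing-by-sex term in 32 sums of family and sex with family as a block. EdgeR called 0 of 7682 genes (0%, smallest adjusted p 0.926), with 398 (5.18%) at an unadjusted p under 0.05; DESeq2 called 0, with 2.68% at that threshold. ENSGACG00000017110 had the smallest p among genes whose difference was more positive in females. It averaged 12.4 ± 1.95 CPM in father-reared and 10.8 ± 2.86 CPM in hand-reared baseline females, and 8.50 ± 1.71 CPM in father-reared and 12.3 ± 1.18 CPM in hand-reared baseline males (SD, n = 8 families each). Its female minus male difference was 0.76 on the log2 scale (SE 0.20; edgeR p = 0.000815, adjusted p = 0.926). The smaller ENSGACG00000001208 difference was 0.29 (SE 0.08, edgeR adjusted p = 0.926).

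On the other side, ENSGACG00000000498 averaged 57.1 ± 29.8 CPM in father-reared and 46.2 ± 4.29 CPM in hand-reared baseline females, and 76.98 ± 42.8 CPM in father-reared and 46.7 ± 3.29 CPM in hand-reared baseline males (SD, n = 8 families each). Its female minus male difference was -0.39 (SE 0.10; edgeR p = 0.000585, adjusted p = 0.926), and family 31 was its highest family in both sexes, at 125.5 CPM in females and 177.2 CPM in males. ENSGACG00000017982 averaged 17.3 ± 4.12 CPM in father-reared and 23.3 ± 2.92 CPM in hand-reared baseline females, and its female minus male difference was -0.61 (SE 0.15, edgeR adjusted p = 0.926).

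The rearing-by-exposure term asked in the same way whether the rearing difference of females changed between the home tank and the open field. EdgeR called 0 of 7682 genes (0%, every adjusted p rounding to 1), with 2.93% at an unadjusted p under 0.05; DESeq2 called 0, with 1.22%. The gene with the smallest p, ENSGACG00000003426, averaged 54.1 ± 8.04 CPM in father-reared and 46.8 ± 4.45 CPM in hand-reared baseline females, and 52.2 ± 10.1 CPM in father-reared and 57.02 ± 6.69 CPM in hand-reared open-field females (SD, n = 8 families each). Its baseline minus open-field difference was 0.34 on the log2 scale (SE 0.07; edgeR p = 0.000181, adjusted p = 1). ENSGACG00000007389 was the leading gene on the other side, at -0.46 (SE 0.11, edgeR adjusted p = 1). It averaged 62.04 ± 13.2 CPM in father-reared and 76.96 ± 13.6 CPM in hand-reared baseline females (SD, n = 8 families each).

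The next gene on either side of this term varied between families of both rearing groups. ENSGACG00000008172, at 1.68 (SE 0.44, edgeR adjusted p = 1), ran from 0 to 54.3 CPM over father-reared and from 0 to 39.6 CPM over hand-reared families of baseline females. ENSGACG00000002233, at -0.42 (SE 0.11, edgeR adjusted p = 1), was near 0 in 1 family of each group, at 0.584 CPM in father-reared family 17 and 1.32 CPM in hand-reared family 11. The highest families stood at 337 CPM in father-reared and 351 CPM in hand-reared baseline females, and families 17 and 11 were near 0 again in baseline males, at 1.16 and 1.02 CPM. Single females also differed within families. ENSGACG00000002233 ran from 0 to 180.3 CPM over the females of family 31, and ENSGACG00000008172 from 0 to 42.3 CPM over those of family 35.

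Lists of genes taken from other fish of the series gave a further view of the baseline females. Genes of a list are not independent replicates, so the shares and medians given for lists are descriptions and test nothing. The first list held the 20 genes higher in open-field than in baseline males, at an edgeR adjusted p under 0.05. In baseline females 15 of the 20 were lower and 5 higher in father-reared families, with a median log2 fold change of -0.14, against 0.00 over all genes. At an unadjusted p under 0.05, 4 were lower (20%, against 1.71% of all genes) and 0 were higher, and 0 passed adjustment. ENSGACG00000016157 was one of the 20, with an open-field response of 1.06 on the log2 scale in males (SE 0.10, edgeR adjusted p = 1.1e-15) and 1.28 in females (SE 0.09, edgeR adjusted p = 1.09e-23). The median rearing difference of the list was 0.00 in baseline males, which were among the fish that chose it, and 0.02 in open-field females. In baseline females it stayed below 0 with each family left out in turn, from -0.19 to -0.07. Mean log2 CPM over the 20 genes ran from 4.44 to 5.18 in father-reared families and from 4.75 to 5.13 in hand-reared families. Father-reared families 17, 19, 20 and 27 lay below every hand-reared family. Families 07, 26 and 31 lay within the hand-reared range, and family 35 lay above it. The single gene lower in open-field than in baseline males had a log2 fold change of 0.05 in baseline females.

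Genes that differ by sex in open-field fish were the next lists. Of 296 genes higher in open-field males than in open-field females, 66 were higher in father-reared baseline females at an unadjusted p under 0.05 (22.3%, against 2.89% of all genes) and 1 was lower. The median log2 fold change was 0.06. Mean log2 CPM over the 296 genes was 6.09 in father-reared family 31, 5.82 in family 35, and 5.62 in families 20 and 26. It lay between 5.37 and 5.49 in the other father-reared families and between 5.415 and 5.57 in hand-reared families. Without family 31 the 66 became 24 (8.11%, against 1.93% of all genes). Of the 291 genes lower in open-field males, 6 were higher (2.06%) and 5 lower (1.72%) at that threshold, near the 2.89% and 1.71% of all genes, with a median of 0.00.

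The list from family 31 held 242 genes that in baseline males of family 31 were over 2-fold above the mean of the other father-reared families. Females of family 31, from the same family as these males, were among the father-reared females compared. A higher father-reared level was therefore partly built in, and the values that include family 31 describe the list and test nothing. In baseline females 220 of the 242 were higher in father-reared families, with 46.3% of the list higher at an unadjusted p under 0.05 (against 2.89% of all genes) and a median log2 fold change of 0.56. Without family 31 the median was 0.26 and 44 were higher at that threshold (18.2%, against 1.93% of all genes). Mean log2 CPM over the list was 5.82 in females of family 31, 4.98 in family 35, 4.51 in family 26 and 4.496 in family 20, and it lay between 3.81 and 4.24 in the other father-reared families and between 3.95 and 4.40 in hand-reared families. The list held 45 of the 48 genes over 2-fold higher in baseline females (93.8% of the 48, and 18.6% of the 242). Since 38 of the 48 were highest in family 31, this overlap was also partly built in.

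Both kinds of list overlapped. They shared 79 genes, 26.7% of the 296 higher in males and 32.6% of the 242, where all genes tested were 7682. Among the other genes higher in males, 11 were higher in father-reared baseline females at an unadjusted p under 0.05 (5.07%, against 2.89% of all genes), with a median log2 fold change of 0.01. The 39 genes that DESeq2 called higher in father-reared baseline males had a median of 1.00 in baseline females, with 33 higher at an unadjusted p under 0.05 (84.6%, against 2.89% of all genes). Without family 31 the median was 0.58, with 21 higher (53.8%, against 1.93% of all genes). These males came from the same families as the females, so a higher level was partly built in, with or without family 31. Mean log2 CPM over the 39 genes in baseline females was 6.18 in family 31, 5.315 in family 35, 4.47 in family 26 and 4.28 in family 20. It lay between 3.31 and 3.75 in the other father-reared families and between 3.25 and 4.09 in hand-reared families. The 6 called lower in those males had a median of 0.00 in baseline females. The 50 most abundant genes had a median of 0.00, with 0 at an unadjusted p under 0.05 in either direction.

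**Figure D5:**
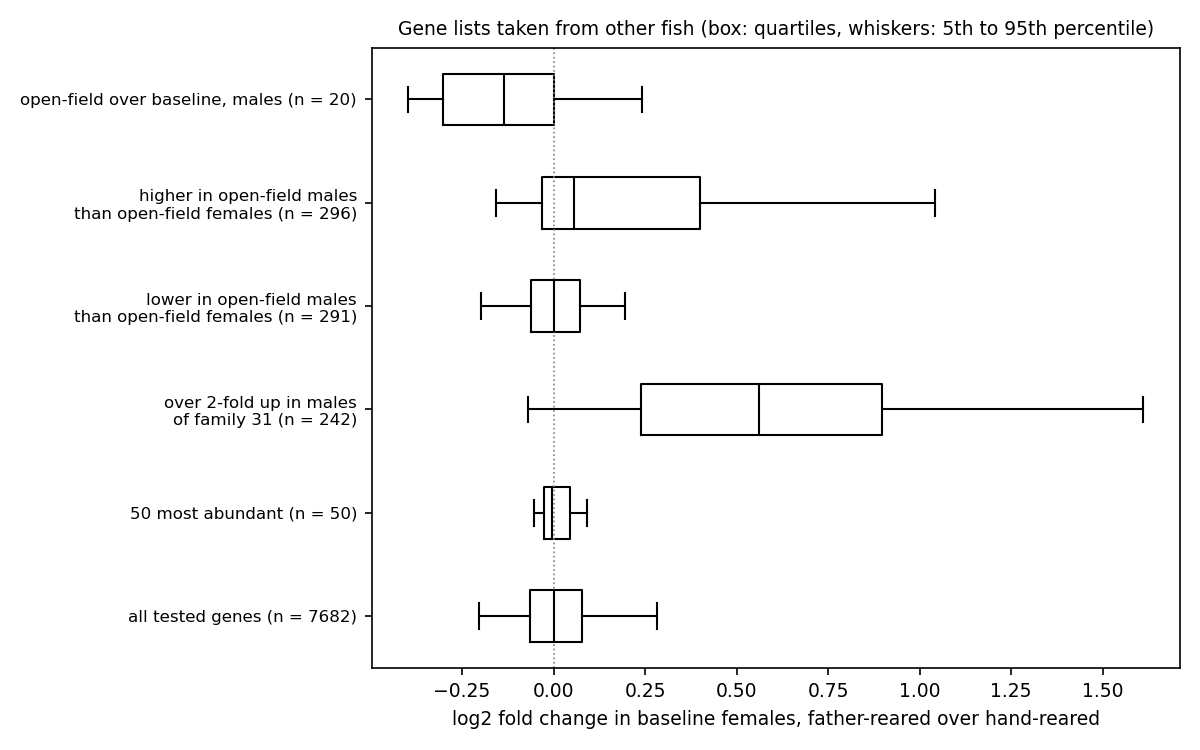
Log2 fold changes in baseline females, father-reared over hand-reared, for 5 lists of genes and for all 7682 genes (line: median, box: quartiles, whiskers: 5th to 95th percentile). The 20 open-field genes have a median of -0.14, the 242 genes from baseline males of family 31 a median of 0.56, and the other lists medians between 0.00 and 0.06.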

How the data were processed

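Brain RNA of 242 fish was measured by 3′ tag sequencing on 6 lanes. The authors deposited raw counts, whole numbers for each gene in each lane of each library. Of the 1452 columns, 0 were left without a fish. Per the submitters' processing notes, FastQC 0.11.8, STAR 2.2.3a and HTSeq 0.9.1 were used. Not given in the sources used here are the genome build, the annotation, duplicate removal and the strand setting, so genes with near-identical copies or antisense partners are uncertain and no position is given. Of 22456 identifiers 20626 had a count and 0 matched the 52177 genes of the reference table.

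Lanes were summed per fish. Lanes of a library differed by at most 1.10 in chi-square per degree of freedom, and the closest of 625 pairs of baseline females of the same rearing by 2.66, so none of these pairs was taken for copies. Other pairs were not compared. Families were read from the number that opens each fish code, and plates from the digit that opens each library name. Genes were kept by filterByExpr (minimum count 10) over the groups of rearing and exposure in all fish, which left 7682. Rearing was tested on sums per family with edgeR 4.0.16 (R 4.3.3), TMM scaling and Benjamini-Hochberg adjustment over all genes, with no covariate. Standard errors (SE) were derived from each log2 fold change and its F statistic. CPM, computed here, uses TMM-scaled totals, and log2 CPM a prior count of 2. DESeq2 1.42.0, limma 3.58.1, other scalings, filters, covariates, units and subsets of families, sides and plates were alternatives. Open-field and sex lists came from edgeR fits of single fish with over 500000 counts, with family, plate and side as terms.

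The named genes are the 2 with the smallest p in each direction of each edgeR comparison, and the gene with the smallest p for sex. Those of the comparisons without baseline females are left out. The fish, lists and comparisons were chosen with earlier results of these data known. The scripts were tested on simulated data. Totals of 706544 to 1348204 counts per baseline female limit precision at low levels, and intervals and errors from counts cover no duplicate reads. No sequence is printed.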

Additional observations from a re-analysis of the deposited data

Results flagged for a closer look

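Among 40 sets of 8 families looked at, 3 had a family far from the others of its rearing group. For independent, normally distributed sets about 1 in 20, or 2, would be far. Many sets were genes named by p in these same families, and some lists share genes, so this number is a rough guide only. ENSGACG00000000498 stood at 125.5 CPM in father-reared family 31, and the next father-reared family was at 62.6 CPM. ENSGACG00000008172 stood at 39.6 CPM in hand-reared family 40, which held 1 baseline female, and the next hand-reared family was at 18.5 CPM. The mean log2 CPM of the 296 genes higher in males after the open field was 5.57 in hand-reared family 25, and the next hand-reared family was at 5.48.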

How the results depend on the processing

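For baseline females, 34 of 35 alternatives called 0 genes for rearing, among them DESeq2, limma-voom, no filter on low counts and each of the 16 families left out in turn. The exception treated single fish as independent replicates and called 1.6% of 7682 genes, all but 7 of them higher, among them ENSGACG00000015437 and ENSGACG00000020876 (edgeR adjusted p 0.00022 each), which under the other alternatives did not pass. Genes at an unadjusted p under 0.05 numbered 261 to 426 with a family left out. All 4 named genes kept their direction in every alternative that gave a value. The filter on family sums gave none for ENSGACG00000015437. DESeq2 called 45 genes (0.586%) for rearing in baseline males and 1 (0.013%) in open-field females, where edgeR called 0 in each. With no filter on low counts, edgeR called 21 genes (0.104%) for rearing by sex and 19 (0.0939%) for rearing by exposure, against 0 with it. For rearing by sex and rearing by exposure, the count was 0 with each family left out and with no family block. The difference in detected genes was -29.2 with all counts of a fish, against 15.6 at 700000 counts, and its direction reversed. The cause of these differences was not tested. The difference in mean score on the first component kept its sign, from -11.4 to -0.54 over its alternatives. No paired analysis was possible because replicate numbers only count fish in accession order and the rearing groups share no family. The lowest of the 4 classes by level had the largest median standard error, 0.18, and the part of depth in it was not tested. Family sizes of 1 to 6 females, unknown shared parents and the lack of gene names limit every comparison.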
